A study of Mus musculus with 17 samples.

Results

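The genes described here are 37 that mark the interferon response and antigen presentation in the mouse. They were chosen by name, with earlier results of these data known. They were read as 3 classes: 23 interferon-induced genes, 9 genes of MHC class I presentation and 5 genes of MHC class II presentation. All 37 are listed in the files of the inducible model, out of 39170 genes kept there. In the files of the wild-type, Ctnnb1 and combined groups 36 are listed, out of 13905 genes. Nlrc5, the transactivator of class I genes, is the member not listed in those files. Those 36 passed the filter on low values in the genotype files, and all 37 passed it in the inducible files.

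Transcripts were measured by RNA sequencing of frozen prostate tissue and prostate tumours from C57BL/6 mice. Wild-type prostate was taken at 12 months (n = 3). The Ctnnb1 group is tumours of mice at about 12 months that carry, in the prostate, 1 Ctnnb1 allele without exon 3 (n = 3), which leaves a beta-catenin that escapes breakdown and keeps Wnt target genes on. The combined group carries that allele and a further engineered change and was taken at about 6 to 8 months (n = 3), so age and genotype cannot be told apart there. The labels name no Cre driver for these groups. In the inducible model the combined genotype was made with CreERT2, a form of the Cre recombinase that is switched on by a drug. Its tumours were mock-treated (n = 2) or had androgen deprivation (ADT, n = 3), both at about 15 months. The labels do not say that each library came from its own animal, so p-values measure only the spread between these samples, which may be technical.

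Type I and type III interferons act through their receptors and the kinases JAK1 and TYK2 to form a complex with STAT2 and IRF9 that binds the interferon-stimulated response element (ISRE) of its target genes. Interferon gamma acts through its own receptor and the gamma-activated site (GAS) of target genes, and raises IRF1 and CIITA. MHC class I, made of a heavy chain and beta-2-microglobulin, shows peptides cut by the proteasome and carried by the TAP transporter, and is found on nearly all nucleated cells. MHC class II shows peptides from taken-up protein and is found mainly on macrophages, dendritic cells and B cells.

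The start regions of 28 of the 37 members are held in the RefSeq promoter table (GRCm38.p6; 250 bases before to 50 after each start). The ISRE core GAAANNGAAA, searched on both strands, lay in the windows of 12 of 19 interferon-induced members (63.2%), 1 of 7 class I members (14.3%) and 0 of 2 class II members. It lay in 3.99% of the windows of all 27025 genes in that table. The GAS core TTCNNNGAA, which reads the same on both strands, lay in 4 of 19, 1 of 7 and 0 of 2 windows, against 9.55% of all genes. CCAAT, searched on both strands, lay in 7 of 19, 6 of 7 and 2 of 2 windows, against 41.1%. Motifs were searched separately and may overlap. Among members with a window, which leaves out Oas2, Mx1 and Ciita, those with the largest called change in each class and direction are Oas1a, Ifi44, B2m, Psmb8 and H2-Eb1. Printed below are the bases before the annotated start of 3 of them, 5′ to 3′, with matches to any of the 3 motifs in capitals, because these genes have large changes in the interferon-induced, class I and class II results. The Ifi44 window holds no match and begins with a long AGA repeat, and the Psmb8 window lies inside the annotated gene with a GAS core as its only match, so these are not printed.
Oas1a (chr5:120907526-120907775, minus strand): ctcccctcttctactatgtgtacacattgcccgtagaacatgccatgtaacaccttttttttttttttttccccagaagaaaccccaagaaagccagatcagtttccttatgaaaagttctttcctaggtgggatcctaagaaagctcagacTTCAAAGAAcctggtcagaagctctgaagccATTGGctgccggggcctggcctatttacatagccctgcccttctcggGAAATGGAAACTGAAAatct
B2m (chr2:122147437-122147685, plus strand): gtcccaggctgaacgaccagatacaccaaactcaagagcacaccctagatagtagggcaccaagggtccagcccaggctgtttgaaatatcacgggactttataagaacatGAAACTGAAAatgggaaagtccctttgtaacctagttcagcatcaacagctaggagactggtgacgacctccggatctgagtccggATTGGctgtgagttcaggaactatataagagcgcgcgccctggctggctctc
H2-Eb1 (chr17:34305617-34305866, plus strand): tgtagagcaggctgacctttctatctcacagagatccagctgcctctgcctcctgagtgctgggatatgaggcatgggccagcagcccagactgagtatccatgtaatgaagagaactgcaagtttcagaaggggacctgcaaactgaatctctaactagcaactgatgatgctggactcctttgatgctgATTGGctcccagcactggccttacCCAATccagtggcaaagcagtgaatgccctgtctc
Oas1a holds 2 ISRE cores that overlap, their first bases 20 and 14 before the start, a GAS core 98 before it and CCAAT on the other strand 67 before it. B2m holds an ISRE core 139 before its start and CCAAT on the other strand 53 before it. In H2-Eb1 CCAAT lies 59 bases before the start on the other strand and 35 before it on the gene's strand. A match describes the letters of a window and was not tied to binding.

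Values are gene counts that the authors had rescaled library by library and rounded, so totals are not sequencing depths. Over the genes kept they ran from 37222233 to 38995268 in normal prostate, 26754772 to 27522308 in the Ctnnb1 group, 26428684 to 27189777 in the combined group, 28450046 to 30093932 with mock treatment and 29517296 to 30745069 under ADT. The Ctnnb1 transcript was at 18320 to 18850, 25993 to 26930 and 27677 to 32871 in wild-type, Ctnnb1 and combined libraries, and at 30608 to 40205 with mock treatment and 64204 to 76649 under ADT. Those counts take in exons outside the deletion, so they do not check it. Epithelial markers (Epcam, Cdh1, Krt8, Krt18, Krt5, Krt14, Trp63) were above 0 in every library, and the only prostate marker at 0 was Pbsn, in 1 ADT library. Changes are given as log2 changes of (value + 1) with their standard errors (SE) from limma's moderated test. Genes are called at a Benjamini-Hochberg adjusted p under 0.05 over all genes of the comparison. Both comparisons with wild type use the same 3 control libraries, so their values are set side by side and their likeness is not a result. Library values are listed in the order wild type 1 to 3, Ctnnb1 13 to 15 and combined 10 to 12.

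Most interferon-induced members were higher in tumours than in wild-type prostate. In the Ctnnb1 group 17 of 23 rose and 1 fell (median log2 change 1.46), where 28.9% of all 13905 genes were called higher and 29.6% lower with a median of 0.00. In the combined group 20 of 23 rose and 1 fell (median 1.78), against 28.3% and 29.5% of all genes and a median of -0.01. Over all 36 members, 21 rose, 2 fell and 13 were not called in Ctnnb1 tumours, and 29, 2 and 5 in combined tumours. A lack of overlap with wild type, given below for single members, was common over all genes. In Ctnnb1 tumours 29 of 36 members lay above wild type without overlap and 3 below, against 4996 and 4945 of all 13905 genes. In combined tumours 24 members lay above and 2 below, against 4469 and 4721 of all genes. Class I members split, with 4 of 8 higher and 1 lower in each group. Of the class II members 0 of 5 were called in Ctnnb1 tumours and 5 of 5 in combined tumours, but a fit of just the 6 libraries compared called 5 of 5 and 1 of 5, and the difference between the groups was not tested. In whole tissue, fewer cells of a type and less RNA per cell cannot be told apart.

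**Figure D1:**
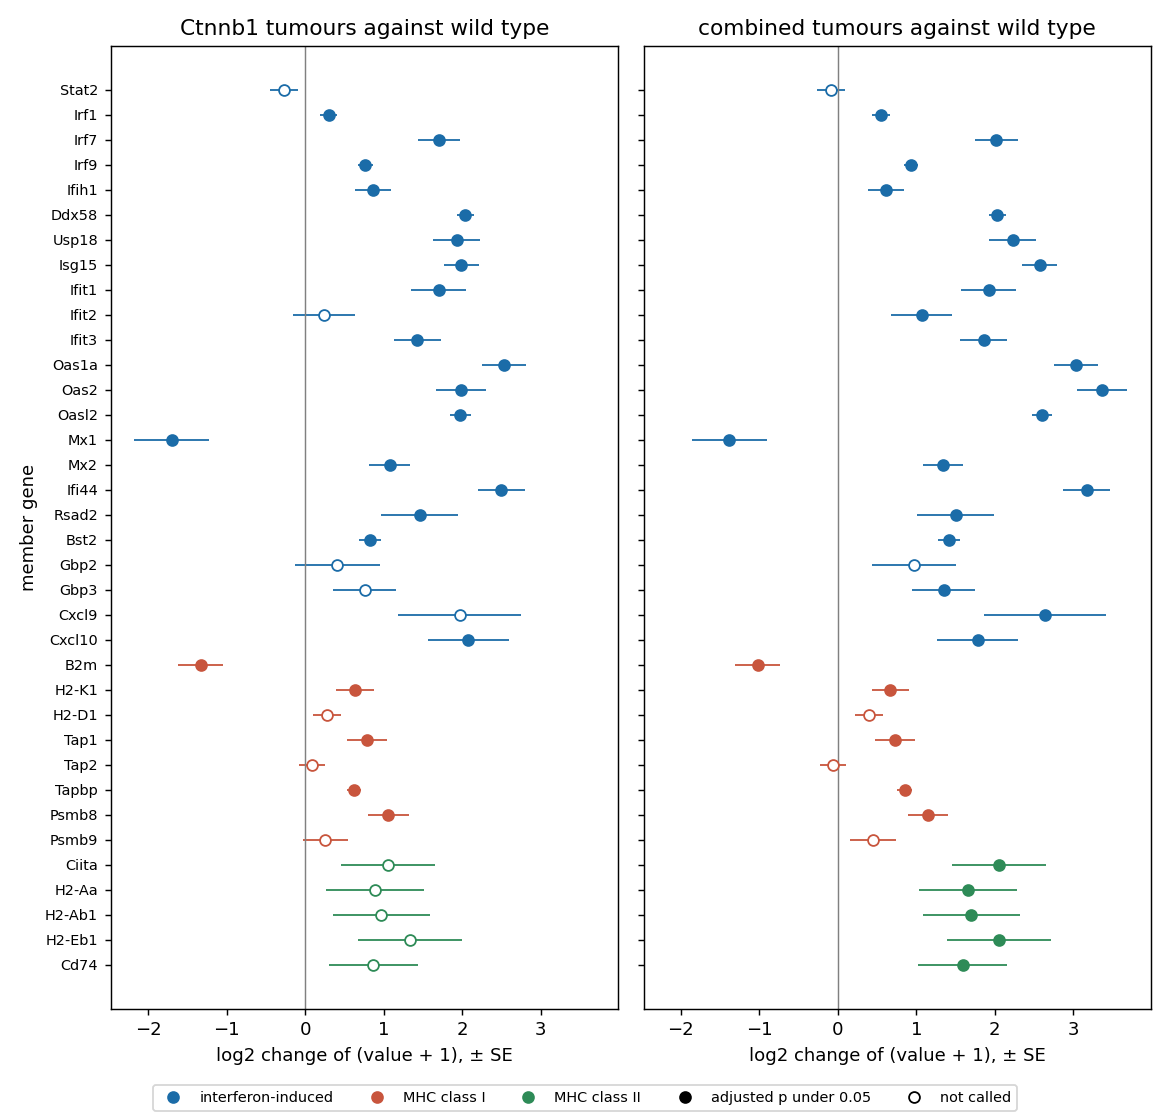
Log2 change of (value + 1) with its SE for the 36 members listed in the genotype files, Ctnnb1 (left) and combined (right) tumours against wild type, n = 3 libraries a group. Filled points are called; B2m and Mx1 are the only called members left of 0 in either panel, and the class II points are open on the left and filled on the right.

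The transcription factors of the pathway did not move alike. Irf7, the factor that amplifies type I interferon production, was at 422, 502 and 438 in the normal prostates, 1660, 1663 and 1188 in the Ctnnb1 tumours and 2889, 1329 and 1614 in the combined tumours. Every tumour library lay above every wild-type one (log2 change 1.71, SE 0.27, limma adjusted p 0.000959 in the Ctnnb1 tumours, and 2.02, SE 0.27, adjusted p 0.000417 in the combined tumours). Irf9, the DNA-binding part of the STAT complex, was at 1545, 1765 and 1404 in the normal prostates, 2756, 2539 and 2701 in the Ctnnb1 tumours and 3049, 3088 and 2841 in the combined tumours, again without overlap (0.77 and 0.93, SE 0.09 each). Irf1, the main factor downstream of interferon gamma, had the smallest change of the called factors, at 1105 to 1195 in normal prostate, 1294 to 1591 in Ctnnb1 tumours and 1511 to 1884 in combined tumours (0.30 and 0.55, SE 0.11 each). Its Ctnnb1 call (limma adjusted p 0.0375) was lost without any of the wild-type libraries, Ctnnb1 13 or Ctnnb1 15 (adjusted p up to 0.123). Stat2, the partner of IRF9, was at 2660, 2880 and 2818 in the normal prostates, 2442, 2604 and 1933 in the Ctnnb1 tumours and 3411, 2510 and 2084 in the combined tumours. It was called in neither group (limma adjusted p 0.217 and 0.676), and its changes of -0.27 and -0.09 turned positive when libraries were scaled to equal totals (0.22 and 0.42).

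Among the sensors of viral RNA, Ddx58 (RIG-I) showed the tightest groups. It was at 702, 611 and 837 in the normal prostates, 2786, 2923 and 3078 in the Ctnnb1 tumours and 2983, 2781 and 2945 in the combined tumours. This is 4.11-fold and 4.08-fold higher (log2 change 2.04 and 2.03, SE 0.11 each, limma adjusted p 1.08e-05 and 1.24e-05), and both kinds of tumour stood far from the wild-type range. Ifih1 (MDA5), which senses long double-stranded RNA, was at 764, 1023 and 939 in the normal prostates, 1488, 2163 and 1394 in the Ctnnb1 tumours and 1827, 1317 and 1096 in the combined tumours. Its change was smaller (0.87 and 0.61, SE 0.23 each). The combined call (limma adjusted p 0.0452) was lost without any wild-type library, combined 10 or combined 11 (adjusted p up to 0.142).

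Both members of the ISG15 system rose. Isg15, a ubiquitin-like protein joined to other proteins after interferon, was at 104, 114 and 126 in the normal prostates, 442, 540 and 402 in the Ctnnb1 tumours and 947, 573 and 586 in the combined tumours (3.98-fold and 5.93-fold). Its log2 changes were 1.99 and 2.57 (SE 0.22 each, limma adjusted p 0.000156 and 4.72e-05). Usp18, which removes ISG15 and dampens the type I receptor, was at 115 to 210 in normal prostate, 466 to 710 in Ctnnb1 tumours and 551 to 1053 in combined tumours (1.93 and 2.23, SE 0.3 each). For neither gene did a tumour library reach down to the wild-type range.

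Among the members, Oas1a, of the oligoadenylate synthetase (OAS) family, and Ifi44 rose most in the Ctnnb1 group. In the combined group Oas2, Ifi44 and Oas1a rose most. Oas1a, which makes the messenger that switches on RNase L, was at 50, 99 and 111 in the normal prostates, 509, 500 and 432 in the Ctnnb1 tumours and 770, 694 and 580 in the combined tumours. That is 5.79-fold and 8.17-fold (log2 change 2.53 and 3.03, SE 0.28 each, limma adjusted p 0.00018 and 7.55e-05). Oas2 of the same family was at 53, 61 and 53 in the normal prostates, 210, 239 and 224 in the Ctnnb1 tumours and 1030, 473 and 404 in the combined tumours (1.99 and 3.37, SE 0.32 each). The Ctnnb1 libraries were close together, while combined 10 stood far above the other libraries of its group. Oasl2, an OAS-like protein, was at 376 to 475 in normal prostate, 1525 to 1760 in Ctnnb1 tumours and 2301 to 3048 in combined tumours (1.98 and 2.60, SE 0.13 each). Ifi44 was at 70, 94 and 82 in the normal prostates, 422, 499 and 480 in the Ctnnb1 tumours and 1229, 655 and 507 in the combined tumours. No tumour library overlapped wild type (2.5 and 3.17, SE 0.3 each).

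The IFIT family, RNA-binding blockers of viral translation, lies together on chromosome 19 (GRCm38, 34550694 to 34650009 from Ifit2 to Ifit1) and did not move as a block. Ifit1 was at 218, 140 and 263 in the normal prostates, 529, 964 and 546 in the Ctnnb1 tumours and 1148, 683 and 562 in the combined tumours (log2 change 1.70 and 1.92, SE 0.35 each). Ifit3 was at 194, 224 and 212, then 542, 739 and 454, then 1238, 683 and 528 (1.43 and 1.86, SE 0.3 each). Ifit2, between 270 and 351 in normal prostate, was at 295, 413 and 350 in Ctnnb1 libraries, which overlap wild type (0.24, SE 0.39, limma adjusted p 0.611). In the combined group it was at 1087, 679 and 323, called higher (1.07, SE 0.39, limma adjusted p 0.0422) although combined 12 lay inside the wild-type range. That call was lost without any wild-type library, combined 10 or combined 11 (adjusted p up to 0.115), and in a fit of the 6 libraries compared.

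Mx1 and Mx2, dynamin-like antiviral GTPases that sit side by side on chromosome 16 (97447035 to 97560900 over both), went opposite ways. Mx1 was at 538, 686 and 514 in the normal prostates, 145, 218 and 174 in the Ctnnb1 tumours and 513, 179 and 116 in the combined tumours. It fell in both groups (log2 change -1.70 and -1.38, SE 0.48 each, limma adjusted p 0.0151 and 0.0351), with combined 10 just under the lowest wild-type value. The Ctnnb1 call was lost without wild type 2 or Ctnnb1 13 (adjusted p up to 0.052). The combined call was lost without any wild-type library, combined 11 or combined 12 (up to 0.102), with equal totals (0.135) and in the fits of 6 and of 12 libraries. Many inbred strains, C57BL/6 among them, carry an Mx1 allele that makes no working protein. Mx2 was at 91, 56 and 76 in the normal prostates, 136, 186 and 147 in the Ctnnb1 tumours and 244, 153 and 173 in the combined tumours and rose in both groups (1.08 and 1.34, SE 0.26 each, limma adjusted p 0.00811 and 0.0028). The ratio of Mx1 to Mx2 within a library was 5.91, 12.25 and 6.76 in the normal prostates, 1.07, 1.17 and 1.18 in the Ctnnb1 tumours and 2.1, 1.17 and 0.671 in the combined tumours. The lowest wild-type ratio is thus above the highest tumour ratio, whatever the scaling of the libraries.

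**Figure D2:**
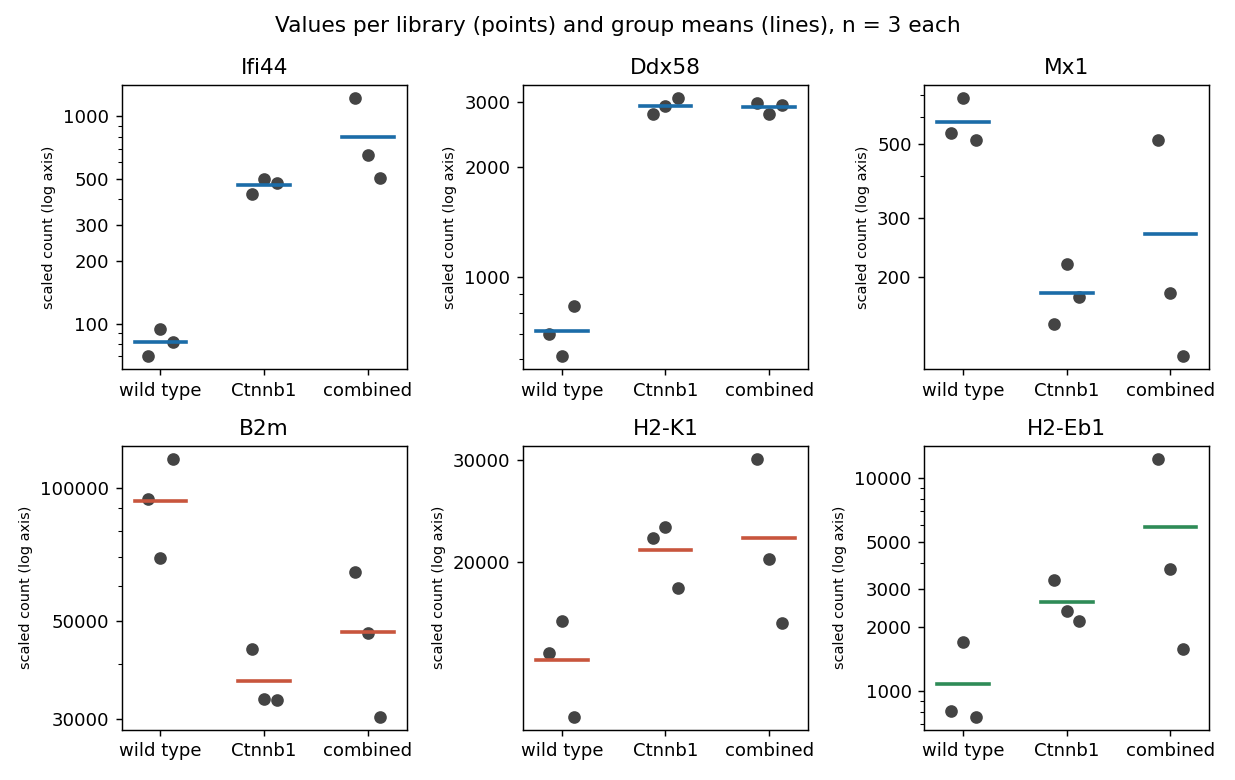
Scaled counts of 6 members per library (points, log axis) with the group means (lines) in wild-type, Ctnnb1 and combined libraries, n = 3 each. Ifi44 and Ddx58 separate cleanly from wild type, Mx1 and B2m lie lower in tumours, and combined 10 (leftmost point of the combined group) is far above its group for H2-Eb1, at 12316 against 3754 and 1581.

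Of the remaining effectors, Bst2 (tetherin), which holds budding virus at the cell surface, was at 618, 663 and 675 in the normal prostates, 1134, 1259 and 1100 in the Ctnnb1 tumours and 2041, 1891 and 1374 in the combined tumours. It rose without overlap (log2 change 0.83 and 1.42, SE 0.14 each). Rsad2 (viperin) was at 222, 139 and 231, then 298, 1076 and 470, then 913, 442 and 408 (1.46 and 1.5, SE 0.49 each, limma adjusted p 0.0318 and 0.0284). The Ctnnb1 values of Rsad2 are spread widely, and the call was lost without any wild-type library, Ctnnb1 14 or Ctnnb1 15 (adjusted p up to 0.102). The combined call was lost without wild type 1, wild type 2 or combined 10 (up to 0.0943).

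The guanylate-binding proteins and the chemokines, classic responders to interferon gamma, varied more between combined libraries than between wild-type or Ctnnb1 libraries. Gbp2 was at 266, 250 and 310 in the normal prostates, 446, 396 and 275 in the Ctnnb1 tumours and 1194, 623 and 207 in the combined tumours and was called in neither (limma adjusted p 0.534 and 0.158), but was called without combined 12 (0.00267). Gbp3 was at 154, 136 and 159, then 277, 288 and 203, then 673, 430 and 193. It was called in the combined group (log2 change 1.35, SE 0.4, limma adjusted p 0.019), though not without wild type 2 or combined 11 (up to 0.0581). It was not called in the Ctnnb1 group (limma adjusted p 0.134), except with equal totals and in a fit of the 6 libraries compared (as low as 0.00993). The difference between the groups was not tested. Cxcl9, which draws CXCR3-bearing T cells, was at 20, 23 and 27 in the normal prostates, 110, 132 and 56 in the Ctnnb1 tumours and 548, 129 and 47 in the combined tumours. Although no tumour library overlapped wild type, the Ctnnb1 change of 1.97 missed the threshold in limma (SE 0.78, adjusted p 0.058). It passed with equal totals and in a fit of the 6 libraries compared (as low as 0.00397). The combined change of 2.64 passed it (adjusted p 0.0191), though not without wild type 1 or wild type 2 (up to 0.0558). Cxcl10, a ligand of the same receptor, was at 49, 38 and 44, then 130, 307 and 164, then 350, 107 and 92 (2.08 and 1.78, SE 0.52 each). Its combined call was lost without wild type 2 (limma adjusted p 0.0569).

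Within MHC class I, the shared light chain and the heavy chains moved apart. B2m was at 94368, 69626 and 116486 in the normal prostates, 43352, 33393 and 33215 in the Ctnnb1 tumours and 64734, 47017 and 30431 in the combined tumours. Every wild-type library lay above every tumour library, a 2.52-fold and 2.02-fold fall (log2 change -1.33 and -1.02, SE 0.29 each, limma adjusted p 0.00503 and 0.0173). The Ctnnb1 call held without any single library. The combined call was lost without wild type 1 or wild type 3 (adjusted p up to 0.0607) and with equal totals (-0.50, adjusted p 0.15). H2-K1, a classical heavy chain, was at 13951, 15865 and 10835 in the normal prostates, 22018, 23006 and 18041 in the Ctnnb1 tumours and 30162, 20233 and 15686 in the combined tumours. It was called higher in both groups by a small margin (0.64 and 0.67, SE 0.24 each, limma adjusted p 0.0471 and 0.0419). These calls were lost without wild type 1 or 3, without any Ctnnb1 library, and without combined 10 or 11 (adjusted p up to 0.151). H2-D1, the other classical heavy chain of this strain, was at 19096, 12810 and 16165, then 21463, 20199 and 16263, then 25098, 18993 and 19062. It was not called (limma adjusted p 0.213 and 0.0874), except with equal totals or, in the combined group, without wild type 1.

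The ratio of B2m to the sum of H2-K1 and H2-D1 within a library does not depend on how libraries are scaled. It was 2.86, 2.43 and 4.31 in the normal prostates, 0.997, 0.773 and 0.968 in the Ctnnb1 tumours and 1.17, 1.2 and 0.876 in the combined tumours, with no overlap between wild type and tumours. This ratio shows unequal change and not which part of it changed. Reads that fit more than 1 place may have been dropped, and H2-K1 and H2-D1 share long stretches with each other and with other class I genes, so their levels are uncertain.

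The peptide supply genes of class I lie within the MHC region of chromosome 17 (GRCm38, Tapbp at 33915899 to Tap2 at 34216321). Tapbp (tapasin), which bridges TAP and the heavy chain, rose most evenly, from 4775, 5307 and 4548 in normal prostate to 7933, 7172 and 7380 in Ctnnb1 tumours and 9329, 7889 and 9220 in combined tumours (log2 change 0.62 and 0.85, SE 0.09 each, limma adjusted p 0.000617 and 0.000129). Psmb8, a catalytic subunit of the immunoproteasome, went from 471, 459 and 417 to 1109, 836 and 889 and to 1574, 830 and 753 (1.06 and 1.15, SE 0.26 each, limma adjusted p 0.0079 and 0.00551). Psmb9, another of its catalytic subunits, was at 372, 326 and 339, then 489, 382 and 381, then 786, 412 and 325. It was not called (limma adjusted p 0.459 and 0.214), but was called higher in both groups with equal totals. Tap1, a subunit of the peptide transporter, was at 818, 801 and 705, then 1405, 1438 and 1174, then 2063, 1101 and 927 (0.79 and 0.73, SE 0.26 each, limma adjusted p 0.0309 and 0.041). Its calls were lost without any wild-type library and, in the Ctnnb1 group, without Ctnnb1 13 or 14 (adjusted p up to 0.111). Tap2, its partner, was at 1421, 1270 and 1424, then 1563, 1417 and 1413, then 1672, 1379 and 979 and was not called (0.09 and -0.06, limma adjusted p 0.654 and 0.773), but was called higher with equal totals (0.59 and 0.45). The labels do not say whether reads were counted by strand, and exons of these genes overlap others on the opposite strand: 904 bases of Tapbp (24.9% of its exon bases) with Gm19412, 498 of Psmb8 (14.7%) with Gm20496, 533 of Tap2 (14.1%) with Gm15821, and 212 shared by Psmb9 and Tap1, which start head to head. Reads there cannot be told apart, so these levels are uncertain.

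MHC class II members were spread out by library. H2-Eb1, a beta chain, was at 804, 1692 and 759 in the normal prostates, 3320, 2375 and 2143 in the Ctnnb1 tumours and 12316, 3754 and 1581 in the combined tumours. H2-Aa, an alpha chain, was at 1522, 1965 and 1382, then 3754, 2852 and 2437, then 14811, 4543 and 1928. Its partner H2-Ab1 was at 1091, 1375 and 943, then 2862, 2014 and 1849, then 10428, 3465 and 1341. For these 3 chains the Ctnnb1 libraries lay above all of wild type, while combined 12 lay within the wild-type range. Cd74, the invariant chain that guides class II through the cell, was at 3990, 4138 and 4018, then 9820, 6593 and 6306, then 32781, 11090 and 4958. Ciita, the transactivator without which class II genes stay silent, was at 88, 80 and 52, then 182, 145 and 129, then 856, 235 and 134. Both separated from wild type in all tumour libraries.

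In the Ctnnb1 group the class II log2 changes ran from 0.87 (Cd74) to 1.34 (H2-Eb1), and limma called 0 of 5, with 0 at an unadjusted p under 0.05, in the fit of 9 libraries that shares its spread with the combined group. In a fit of the 6 libraries compared it called 5 of 5 (adjusted p 0.00394 to 0.0119), and with equal totals 2 of 5. In the combined group they ran from 1.59 (Cd74) to 2.05 (H2-Eb1 and Ciita), and 5 of 5 were called (limma adjusted p 0.0176 to 0.0464). The 6-library fit called 1 of these 5, and 0 were called without wild type 3, 1 without wild type 1, combined 10 or combined 11, and 2 without wild type 2. Against the wild-type mean, the median class II member stood at 3.2, 1.61 and 0.29 on the log2 scale in combined 10, 11 and 12, and at 1.30, 0.83 and 0.70 in the Ctnnb1 libraries.

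**Figure D3:**
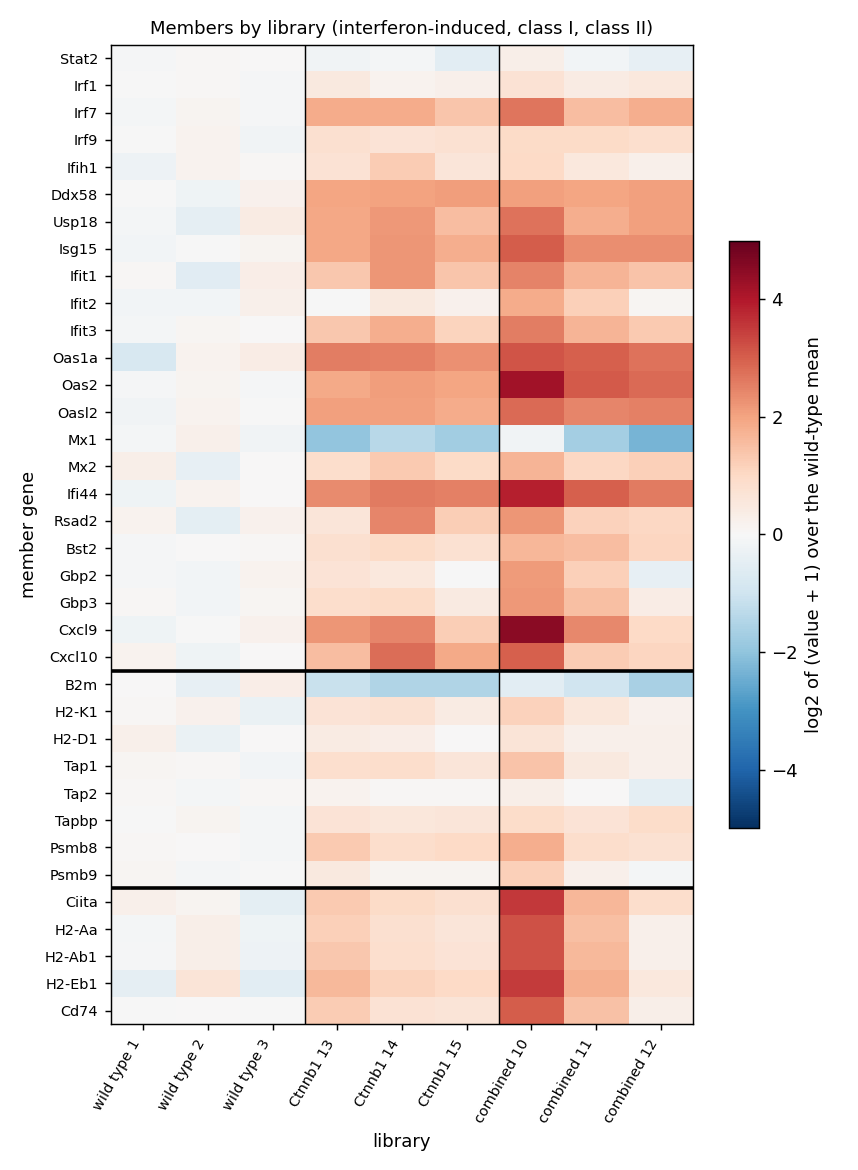
Log2 of (value + 1) over the wild-type mean for the 36 listed members (rows, in 3 blocks by class) in 9 libraries (columns). Red is above and blue below the wild-type mean; Mx1 and B2m are blue in all 6 tumour columns, Stat2 is pale blue in 5 of 6, and the combined 10 column is the reddest of its group in each block.

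Combined 10 had the highest value of its group for 22 of 23 interferon-induced, 8 of 8 class I and 5 of 5 class II members, while 26.4% of all genes were highest there. Without it, 21 members were called higher and 2 lower in the combined group, in place of 29 and 2. The median interferon-induced member stood at 2.2, 1.53 and 1.07 over the wild-type mean (log2) in combined 10, 11 and 12, and at 1.35, 1.87 and 1.23 in Ctnnb1 13, 14 and 15. Interferon-induced and class II members thus ranked the Ctnnb1 libraries differently. Ctnnb1 14 was highest for 18 of 23 interferon-induced members and 34.6% of all genes. Ctnnb1 13 was highest for 5 of 5 class II members and 32.9% of all genes.

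Markers of immune cells differed between the same libraries. Of 12 macrophage markers, 9 rose and 1 fell in Ctnnb1 tumours, and 10 rose in combined tumours (median 1.57 and 2.57). Their sum was 5468 to 6035 in normal prostate, 11407 to 21059 in Ctnnb1 tumours and 54200, 52003 and 14073 in combined 10, 11 and 12. T and NK cell markers (4 of 7 higher in each) summed to 167 to 185, 563 to 659, and 1477, 453 and 283. B cell markers (0 of 5 and 3 of 5 higher) summed to 122 to 215, 96 to 150, and 959, 166 and 471, and dendritic cell markers (2 and 3 of 8 higher, 1 lower in each, shares near the 28.9% and 28.3% of all genes called higher) to 518 to 529, 638 to 1380, and 2130, 1082 and 763. Of 5 markers shared by white blood cells, 4 rose and Cd52 fell in each group (median 1.32 and 2.36). Ptprc (CD45) was at 268, 297 and 251 in the normal prostates, 619, 660 and 770 in the Ctnnb1 tumours and 2770, 1708 and 675 in the combined tumours, and its Ctnnb1 call (limma adjusted p 0.0276) was lost without any 1 of the 6 libraries compared (up to 0.0777). Cd52 was at 6517, 5199 and 11373, then 1895, 1297 and 1525, then 1746, 725 and 3672 (-2.23 and -2.12). With Cd52 included, these 5 summed to 6365 to 12538 in normal prostate, 4609 to 5409 in Ctnnb1 tumours, and 12657, 8309 and 6566 in combined 10, 11 and 12. No immune marker listed was at 0 in any of these libraries. The lowest mean of a gene listed there was 15.6, and some markers are not listed, so this says little about which cells were present. Smooth muscle markers fell (7 of 7 in each group, against 29.6% and 29.5% of all genes). Their sum was 137790 to 177541 in normal prostate, 1280 to 2830 in Ctnnb1 tumours and 5088 to 18166 in combined tumours. The summed class II members per summed macrophage marker came to 1.37, 1.61 and 1.19 in the normal prostates, 1.35, 1.23 and 0.611 in the Ctnnb1 tumours and 1.31, 0.444 and 0.707 in the combined tumours. The part of these cells in the members' changes was not tested.

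Genes of the pathway outside the member list were taken from 5 further lists. Over all genes, 28.9% were called higher and 29.6% lower in Ctnnb1 tumours, and 28.3% and 29.5% in combined tumours. Of 17 listed receptor, JAK-STAT and regulator genes, 9 rose and 2 fell in Ctnnb1 tumours, and 10 rose and 2 fell in combined tumours (median 0.37 and 0.62), and those that fell were the factors Irf2 (-0.33 and -0.44) and Irf3 (-0.23 and -0.39). With equal totals both turned positive in both groups, and Irf3 was then called higher in Ctnnb1 tumours (0.26, limma adjusted p 0.0288). The Ctnnb1 calls were also lost for Irf2 without wild type 2, wild type 3 or Ctnnb1 15, and for Irf3 without wild type 1, wild type 2, Ctnnb1 13 or Ctnnb1 15 (up to 0.138). Ifngr2, a chain of the interferon gamma receptor, was at 2011, 2097 and 1941 in the normal prostates, 4473, 4027 and 4160 in the Ctnnb1 tumours and 4239, 4645 and 5138 in the combined tumours (log2 change 1.06 and 1.21, SE 0.08 each). Its partner chain Ifngr1 was at 2928 to 3549, 3559 to 3755 and 3358 to 3694 and was not called (limma adjusted p 0.14 and 0.225). Ifnar1, of the type I receptor, was at 1095 to 1479, 1648 to 1964 and 1843 to 2143 and rose in both groups (0.49 and 0.62, SE 0.12 each), and Ifnar2 at 675 to 878, 571 to 787 and 784 to 1207 was not called. Ifnlr1, of the type III receptor, was at 603 to 706 in normal prostate, 1277 to 1470 in Ctnnb1 tumours and 908 to 1082 in combined tumours. It rose in both groups (1.03 and 0.56, SE 0.1 each). Socs3, a brake on cytokine signalling, was at 80 to 129, 348 to 517 and 836 to 1462 (2.06 and 3.35, SE 0.26 each). No interferon ligand is listed in the genotype files.

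Among 16 sensors and adaptors, 8 rose and 3 fell in Ctnnb1 tumours, where 28.9% of all genes were called higher and 29.6% lower. In combined tumours 10 rose and 2 fell, against 28.3% and 29.5% of all genes. Zbp1, a sensor of Z-form nucleic acid, changed most of those named, from 29, 22 and 16 in normal prostate to 351, 288 and 263 in the Ctnnb1 tumours and 734, 339 and 312 in the combined tumours (log2 change 3.72 and 4.23, SE 0.36 each). Dhx58 (LGP2) rose by 1.57 and 1.92, and Tmem173 (STING) by 1.45 in the combined group. The adaptors Mavs (-0.28 and -0.42) and Ticam1 (-0.59 and -0.43) were called lower, but none of these calls held with equal totals, where Mavs turned positive in both groups and Ticam1 in the combined one. The Ctnnb1 groups of Mavs overlap, and that call was lost without any wild-type library, Ctnnb1 13 or Ctnnb1 15 (limma adjusted p up to 0.145). The combined call of Ticam1 was lost without wild type 2 or combined 11 (up to 0.0756). The sensor Aim2 was also called lower in Ctnnb1 tumours (-1.9, SE 0.67, limma adjusted p 0.0386), at 169, 68 and 71 against 115, 667 and 566. Its groups overlap, and the call was lost without wild type 2, wild type 3, Ctnnb1 14 or Ctnnb1 15 (up to 0.129). Aim2 was not called with equal totals (0.0883), nor in combined tumours (-1.12, limma adjusted p 0.183). Of 38 other interferon-induced genes 29 rose in Ctnnb1 tumours and 31 in combined tumours, with 0 lower in either (median 1.05 and 1.35). The shares of all genes are those given above for each group. Trim25, a ligase that activates RIG-I, rose by 0.85 in the Ctnnb1 and 0.66 in the combined group (SE 0.05 each). In the same order Parp14 rose by 1.35 and 1.34, and Ddx60 by 2.2 and 2.65. Lgals3bp rose by 1.08 and 2.42, Dtx3l by 0.75 and 1.12, and Ifitm3 by 1.52 and 2.13, all called in both groups.

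Of other class I genes, 7 of 19 were higher in each group, with 5 lower in Ctnnb1 tumours and 2 in combined tumours. The counts stand beside 28.9% higher and 29.6% lower over all genes in the first comparison and 28.3% and 29.5% in the other, so the Ctnnb1 shares are near the background. H2-T23, the non-classical Qa-1 chain, was at 2115, 3411 and 1594 in the normal prostates, 9553, 9634 and 7878 in the Ctnnb1 tumours and 7866, 6840 and 7664 in the combined tumours (log2 change 1.99 and 1.72, SE 0.24 each). Psme1, of the proteasome activator PA28, rose by 0.70 and 0.62. The chaperones Calr (-0.99), Canx (-0.36) and Pdia3 (-0.50) were called lower in the Ctnnb1 group. With equal totals Calr stayed called (-0.50), Pdia3 was at -0.01 and Canx turned positive (0.13), and the Canx call was also lost without wild type 2 or Ctnnb1 15 (limma adjusted p up to 0.0578). Rfxap, a subunit of the factor that binds MHC promoters, fell by 0.79 in the combined group, a call lost with equal totals (limma adjusted p 0.0716). Of other class II genes, 3 of 11 rose and 1 fell in Ctnnb1 tumours, no more than the background of 28.9% higher, and 7 of 11 rose in combined tumours against 28.3% (median 0.72 and 2.01). Ctss, the protease that trims the invariant chain, was at 539, 497 and 561 in normal prostate, 3087, 1831 and 4243 in Ctnnb1 tumours and 8075, 6930 and 2344 in combined tumours (2.44 and 3.25, SE 0.46 each), with combined 12 lowest of its group as for the class II chains. Ifi30, a lysosomal thiol reductase induced by interferon gamma, fell in the Ctnnb1 group (-0.78, limma adjusted p 0.0332). That call was lost without any wild-type library or Ctnnb1 15 (up to 0.11) and with equal totals (0.339).

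Androgen deprivation was compared with mock treatment within the inducible model, whose files were scaled on their own. All 37 members were tested and limma called 0, with 9 at an unadjusted p under 0.05. Calls were few throughout, at 2 of 23283 genes (0.00859%), while 3778 genes had an unadjusted p under 0.05, and 0 members were called under each alternative run. The values lay lower under ADT for most members: the median log2 change was -0.90 over the 37, -0.60 for interferon-induced, -1.19 for class I and -1.32 for class II members, against -0.02 over all genes. Under ADT 18 of the 37 lay below both mock libraries without overlap and 0 lay above, where 16.8% of all genes lay below and 16.4% above. The 2 mock libraries themselves differed, with mock 1 the higher in 20 of 23 interferon-induced members and in 50.2% of all genes.

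**Figure D4:**
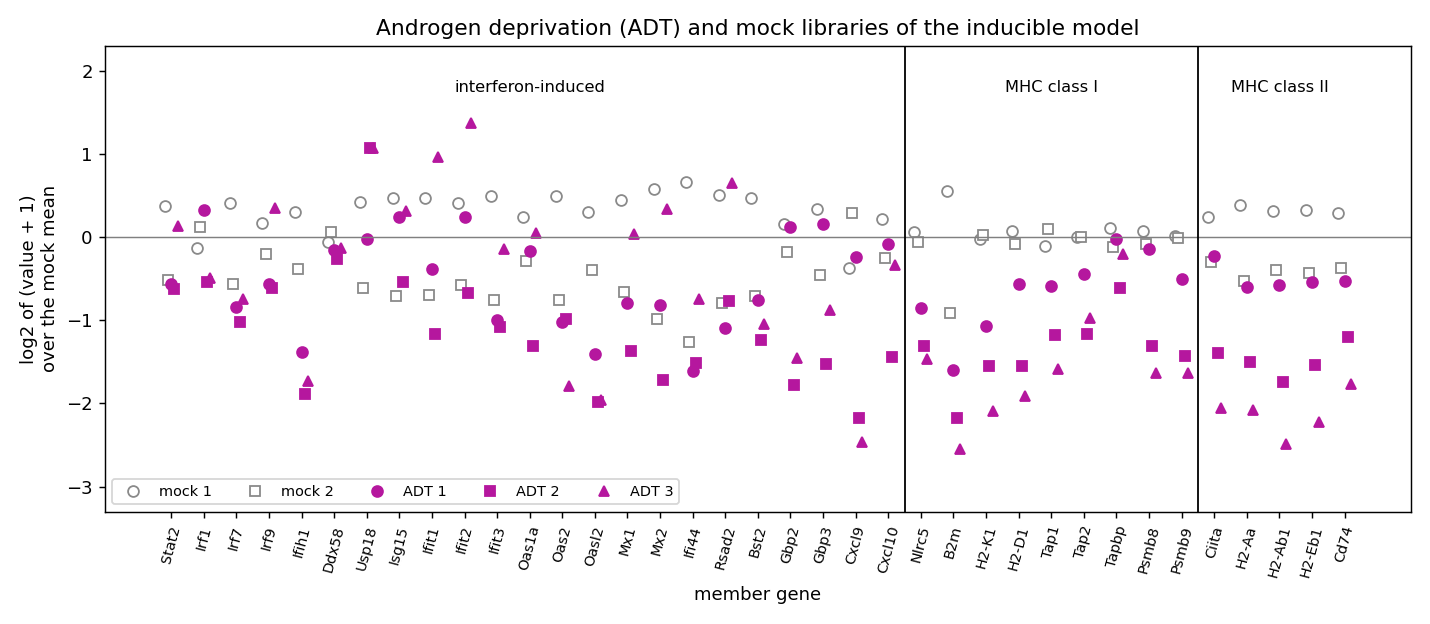
Log2 of (value + 1) over the mock mean for 37 members in 2 mock (open grey) and 3 ADT (filled) libraries of the inducible model. In the class I and class II blocks ADT 1, 2 and 3 lie mostly below both mock libraries, while in the interferon-induced block the groups overlap for 17 of 23 members.

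Class I had the most members without overlap, 8 of 9, of which 7 had an unadjusted p under 0.05. B2m was at 68395 and 24720 in the mock tumours and 15372, 10298 and 7987 after ADT (log2 change -1.93, SE 0.53, limma adjusted p 0.204). H2-K1 was at 21263 and 22082, then 10374, 7393 and 5075 (-1.57, SE 0.32, limma adjusted p 0.16). H2-D1 was at 25673 and 22905, then 16414, 8275 and 6465 (-1.34, SE 0.43). Here the light chain and both heavy chains lay lower together, and the ratio of B2m to H2-K1 and H2-D1 was 1.46 and 0.550 in mock and 0.574, 0.657 and 0.692 in ADT libraries, which overlap. Nlrc5 was at 997 and 916 in the mock tumours and 531, 384 and 347 after ADT (-1.21, SE 0.24, limma adjusted p 0.152). Tap1, Tap2, Psmb8 and Psmb9 likewise lay below both mock libraries, by -0.85 (Tap2) to -1.19 (Psmb9). Tapbp, at 9640 and 8198 against 8804, 5836 and 7724, was the class I member whose groups overlapped (-0.27). ADT 1 was the highest of its group for all 9 class I and all 5 class II members, and for 34.7% of all genes.

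Class II members lay lower in 4 of 5 cases without overlap. H2-Eb1 was at 8217 and 4859 in the mock tumours and 4509, 2260 and 1396 after ADT (log2 change -1.38, SE 0.56, limma adjusted p 0.333), and Cd74 was at 19531 and 12359, then 11102, 6953 and 4676 (-1.13, SE 0.43). H2-Aa and H2-Ab1 differed by -1.32 and -1.55. Ciita was at 652 and 447, then 470, 208 and 131, so that ADT 1 reached into the mock range (-1.2, SE 0.6). None of the 5 had an unadjusted p under 0.05. Macrophage markers summed to 109810 and 32113 with mock treatment and to 30228, 38624 and 30437 under ADT, and the 5 shared white blood cell markers to 14773 and 7935, then 6731, 5715 and 3087. B cell markers summed to 1295 and 1267, then 2056, 451 and 224, and T and NK cell markers to 1078 and 654, then 842, 323 and 160. For these lists too limma called 0 genes, and their part in the class II values was not tested.

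The interferon-induced members were mixed under ADT. Ifih1 was at 2019 and 1264 in the mock tumours and 628, 444 and 496 after ADT (log2 change -1.63, SE 0.28, limma adjusted p 0.13), and Oasl2 was at 4505 and 2780, then 1376, 922 and 937 (-1.74, SE 0.3, limma adjusted p 0.131). Those were the 2 members of the class with an unadjusted p under 0.05, and Irf7, Ddx58, Oas2 and Bst2 were the others without overlap. Ddx58 itself hardly differed, at 3428 and 3733 against 3227, 2990 and 3267 (-0.18, SE 0.11). In contrast, Usp18 was at 1386 and 673 in the mock tumours and 1011, 2165 and 2167 after ADT (0.80, SE 0.5, limma adjusted p 0.497), and Ifit2 was at 1226 and 621, then 1094, 580 and 2385 (0.40, SE 0.68). Isg15 was at 936 and 415, then 800, 466 and 842 (0.12, SE 0.47). ADT 3 was the highest ADT library for 14 of 23 interferon-induced members and 32.9% of all genes. It was the lowest ADT library for 7 of 9 class I members. Its median over the mock mean (log2) was -0.15 for interferon-induced and -1.63 for class I members. In ADT 1 those medians were -0.56 and -0.57.

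The other interferon-induced genes outside the member list (40 tested, 0 called) had a median of -0.67 under ADT, with Parp14 at 3723 and 4113 in the mock tumours and 1577, 1385 and 1279 after ADT (log2 change -1.47, SE 0.14, limma adjusted p 0.0804). Interferon ligands were near or at 0 in these files. Ifnb1 was listed at 0 and 0 in mock and at 1, 1 and 2 in ADT libraries, and Ifng at 3 and 2, then 4, 0 and 0. Ifne, an epithelial type I interferon, was at 4 and 30, then 5, 8 and 13, and the listed Ifna genes and Ifnl3 were at 0 throughout. Ifngr1 was at 4386 and 2776 in the mock tumours and 2336, 1563 and 1419 after ADT (-1.01, SE 0.32), Ifngr2 at 3580 and 3281, then 3193, 2661 and 2340, and Ifnar1 at 3597 and 2438, then 3473, 3277 and 3217, none of them called.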

How the data were processed

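Per the labels' protocols, RNA of frozen tissue was sequenced by BGI as paired reads on an Illumina instrument. The build was GRCm38.p3 and the tools were TopHat2 2.1.0 and Bowtie2 2.2.6.0, DESeq2 1.14.1 in R 3.2.3, HTSeq 0.6.0 and FastQC 0.11.4, per the submitters' processing notes. Their roles and settings are not given in the sources used here.

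The deposited values are scores: gene counts that the authors scaled per library and rounded. This is read from the values themselves, since the median ratios of libraries within a file set lie between 0.977 and 1.01. Raw depth, and the precision it gives, is therefore unknown. In the genotype files, 631 of 15195 rows had no gene (9.71% to 12.7% of values), 270 repeated an identifier and 389 repeated another gene's values, which left 13905. The lowest mean of a gene there was 15.6, so an unlisted gene is not an unexpressed one. In the inducible files, 15208 symbols came from a table of gene names, and 3668 and 9 of 42847 rows repeated a gene, which left 39170.

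Genes with a value of at least 1 in 3 (genotype) or 2 (inducible) libraries were tested by limma 3.58.1 in R 4.3.3 on log2(value + 1) with a trend in the prior variance, adjusted by Benjamini-Hochberg. Wild-type, Ctnnb1 and combined libraries were fitted together (9 libraries), and the 5 inducible libraries alone, because the file sets were scaled separately. The scripts were tested on simulated data. Positions and exons came from the GENCODE annotation of GRCm38, and promoter windows from RefSeq. Python 3.11.15, pandas 2.3.3 and matplotlib 3.10.9 made tables and figures.

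The members, lists and tests were chosen with earlier results of these data known. All 37 members may be named. From each list of other pathway genes, up to 3 per comparison with the smallest p are named, with interferon ligands and receptors. Irf2, Irf3, Mavs, Ticam1, Aim2, Calr, Canx, Pdia3 and Cd52 were named after their values were seen. Alternatives were other pseudocounts and filters, scaling to equal totals, other prior variances, other sets of libraries, leaving out each library and a replicate block. A further genotype group, used in the fit of 12 libraries, is not reported here.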

Additional observations from a re-analysis of the deposited data

How the results depend on the processing

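Members called higher in the Ctnnb1 group numbered 19 to 28 (21 as reported) over the other settings and 17 to 18 without 1 library, and those called lower 2, or 1 to 2 without 1 library (1 without wild type 2 or Ctnnb1 13). In the combined group 22 to 33 were called higher (29 as reported) and 19 to 31 without 1 library (19 without wild type 2), and those called lower were 2, or 0 with equal totals, 1 in the fit of 6 libraries, 1 in that of 12 and 0 to 2 without 1 library. Scaling to equal totals shifted the all-gene median by 0.49 and 0.50 (log2), so that 7797 genes were called higher and 2084 lower (78.9% higher, against 49.4%) in the Ctnnb1 and 7970 and 1758 (81.9%, against 48.9%) in the combined group; relative to that shift the members' changes stayed as reported. At least 1 library left out ended the call of 5 members in the Ctnnb1 and 15 in the combined group. Log2 changes that turned sign, all uncalled as reported, were Stat2 with equal totals (0.22 Ctnnb1, 0.42 combined) and Tap2 in the combined group with equal totals (0.45) and with those without the 100 highest genes (0.02). Without 1 library, Stat2 ran from -0.28 to 0.07 and Tap2 from -0.24 to 0.15 in the combined group, both positive without combined 12. Under ADT the ranges that cross 0 without 1 library were Stat2 -0.73 to 0.17, Isg15 -0.46 to 0.71, Ifit1 -0.66 to 0.50, Ifit2 -0.13 to 0.89, Ifit3 -1.23 to 0.01, Mx2 -1.31 to 0.25 and Rsad2 -0.91 to 0.39. The cause was not tested. Mock and ADT libraries share replicate numbers 1 and 2 with no label that pairs them. Deviations of the same-numbered libraries correlated at 0.223 and 0.117. With 2 mock libraries their deviations mirror each other, so mock 2 with ADT 1 stood at -0.223. Mock 2 and ADT 3, of unlike number, correlated at 0.137, so these values cannot decide whether the numbers pair animals. With the number as a replicate block 0 members were called higher and 0 lower, 0 of all genes were called, and Isg15 (-0.03) and Ifit2 (-0.13) turned sign. Over all genes, ADT calls numbered 2 higher and 0 lower as reported, 38 and 22 at a mean of at least 50, 30 and 14 with equal totals, 27 and 12 with those without the 100 highest genes, 23 and 6 with a robust prior, 4 and 1 at a pseudocount of 16, and 0 without the trend or without any 1 library. With 2 mock libraries the spread is poorly known. Dropping mock 1 or 2 leaves 1 mock library, assumed to vary like the ADT group.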
